A study of Mus musculus with 8 samples.

Results

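Small leucine-rich proteoglycans were followed in sections of the embryonic mouse diaphragm as 9 genes of the 19465 in the files: *Dcn*, *Bgn*, *Aspn*, *Fmod*, *Lum*, *Kera*, *Prelp*, *Omd* and *Ogn*, which encode decorin, biglycan, asporin, fibromodulin, lumican, keratocan, PRELP, osteomodulin and osteoglycin. They were chosen by symbol, and all 9 were found. Spatial transcriptomics was performed with a probe-based Visium assay on formaldehyde-fixed, paraffin-embedded tissue, which counts unique molecular identifiers (UMIs, 1 per captured molecule) in spots 55 µm wide and 100 µm apart. Each of the 8 sections came from 1 embryo. At E14.5 there were 3 control sections and 1 section of a CaV1.1 KO, and at E18.5 there were 2 control sections with 1 section each of the CaV1.1 KO and the β-cat cKO. The KO embryos were CaV1.1 -/- in every cell (labelled dysgenic) and lack the voltage sensor of excitation-contraction coupling, so that their muscle does not contract. In the cKO, HSA-Cre, driven by the human skeletal actin promoter, removes floxed β-catenin from skeletal muscle fibers and not from tendon or connective tissue. Controls carried at least one working allele of each gene and could be heterozygous for either. Each mutant group held 1 section, so its values have no replicate check of their own.

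These proteoglycans are short, curved proteins of the extracellular matrix, built of leucine-rich repeats, that bind collagen fibrils and set how fibrils grow in width and pack side by side. Decorin, biglycan and asporin form class I, whose first members carry chondroitin or dermatan sulfate chains and also bind TGF-β. Fibromodulin, lumican, keratocan, PRELP and osteomodulin form class II, of which several carry keratan sulfate, and osteoglycin belongs to class III. In tendon, fibroblasts secrete fibromodulin, decorin and biglycan as fibrils mature, whereas keratocan is best known from the cornea and PRELP from cartilage and basement membranes.

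On GRCm38, the genes lay in 3 clusters and 1 single locus. *Prelp* (chr1:133910304-133921414, minus strand) and *Fmod* (chr1:134037254-134048277, plus strand) spanned 138.0 kb. *Dcn* (chr10:97479609-97518143), *Lum* (chr10:97565128-97572703) and *Kera* (chr10:97606879-97613692) followed each other on the plus strand over 134.1 kb. *Aspn* (chr13:49544443-49567565), *Omd* (chr13:49582462-49592822) and *Ogn* (chr13:49608046-49624501) spanned 80.1 kb, also on the plus strand and all inside the antisense gene *Cenpp*. *Bgn* stood alone on the X chromosome (chrX:73483602-73495933, plus strand).

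The 250 bases before the start site are shown for *Fmod*, *Ogn* and *Aspn*, as examples of windows that hold the motif searched here, before members that the regional and genotype results turn on. The *Kera* window holds no such motif and lies inside the annotated gene, and is not shown. The sequences are those of RefSeq (GRCm38.p6, plus strand), and 7 of the 9 members were found in its promoter table, all but *Dcn* and *Lum*. Capitals mark the E-box, CANNTG, a motif that reads the same on both strands and is bound by basic helix-loop-helix factors.
Fmod, chr1:134037004-134037253: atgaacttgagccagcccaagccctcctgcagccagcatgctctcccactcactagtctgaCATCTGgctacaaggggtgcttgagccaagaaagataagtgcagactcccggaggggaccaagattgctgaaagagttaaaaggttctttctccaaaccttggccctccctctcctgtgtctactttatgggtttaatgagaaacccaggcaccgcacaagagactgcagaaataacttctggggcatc
Ogn, chr13:49607765-49608014: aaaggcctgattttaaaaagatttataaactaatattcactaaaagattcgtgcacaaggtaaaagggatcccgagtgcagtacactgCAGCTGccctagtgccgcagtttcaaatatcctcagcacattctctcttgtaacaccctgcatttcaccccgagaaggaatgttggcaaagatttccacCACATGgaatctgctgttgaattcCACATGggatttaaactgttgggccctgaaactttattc
Aspn, chr13:49544193-49544442: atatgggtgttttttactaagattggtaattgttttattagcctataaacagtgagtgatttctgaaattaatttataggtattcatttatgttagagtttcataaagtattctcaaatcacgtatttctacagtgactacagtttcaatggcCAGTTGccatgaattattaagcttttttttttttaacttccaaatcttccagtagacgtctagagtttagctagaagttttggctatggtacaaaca
The E-box began 189 bases upstream of the start site in *Fmod* and 97 bases upstream in *Aspn*. *Ogn* held 3, at 162, 63 and 39 bases. The *Bgn* window held 1, at 102 bases, and the *Omd*, *Kera* and *Prelp* windows held 0. The *Prelp* window also reaches into the annotated gene. Of 32851 mouse promoters, 21753 (66.2%) held at least 1 E-box in the same window, so a match describes the sequence only.

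Depth ran from 14179161 to 82859104 UMIs per section, and 12703 of 12771 spots passed a minimum of 1000 UMIs. Spots were sorted into muscle (9873 spots, 491 to 3092 per section), tendon (1218, 60 to 214) and other tissue (1612, 42 to 366) by genes that do not include any of the 9. Over the series *Bgn* gave 133105 UMIs, *Lum* 107435, *Dcn* 104676, *Fmod* 59794, *Ogn* 44610 and *Aspn* 32862, but *Prelp* gave 6194, *Kera* 3752 and *Omd* 225, with 2 to 60 per section for the last. The levels of *Omd* are near the counting limit, where 3 UMIs set the floor, and different genes cannot be ranked by level because probes capture them unequally. The tendon spots carried all 8 tendon markers, except *Cilp2* at 0 in E14.5 control 1, and these summed from 1422 to 3087 CPM (UMIs per 1000000) in controls, 346 and 612 in the KO at E14.5 and E18.5, and 1751 in the cKO. *Scx* is both one of these markers and one of the 4 genes that defined tendon spots. Other tissue was not the same everywhere. Hepatocyte markers in non-muscle spots ranged from 1.88 to 10304 CPM in the controls, and adrenal cortex markers reached 1471 in E14.5 control 1 against 3.13 to 8.10 in the other 7 sections. The targeted genes did not check the labels, because the probes' places relative to the deleted parts are not given in the sources used here: *Cacna1s* was lower in KO muscle at E18.5 (log2 fold change -1.53 ± 0.15 SE, adjusted p = 0.00133) but not called at E14.5, and *Ctnnb1* was not called in cKO muscle. *Ctnnb1* differed by -0.07 ± 0.12 there, and by -0.47 ± 0.13 in KO muscle at E18.5, where it is not the targeted gene.

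The first question was where in the control diaphragm the family was expressed. In tendon, 8 of 9 genes were higher than in muscle at both stages, and only *Omd* was not called. At E14.5 the gap was largest for *Kera* and *Aspn*, and at E18.5 for *Kera* and *Fmod*. Levels are given as CPM scaled by TMM (trimmed mean of M values), and a gene was called at an adjusted p under 0.05 in edgeR's quasi-likelihood test over all genes.

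Fibromodulin, which binds type I collagen and is needed for mature tendon fibrils, reached 266, 257 and 402 in tendon spots of the 3 E14.5 controls, against 52.4, 73.4 and 81.6 in muscle. At E18.5 it reached 2495 and 3331 in tendon, against 116 and 213 in muscle. Tendon and muscle did not overlap at either stage, and the fold rose from 4.45 (1 SE, 3.98 to 4.98; adjusted p = 4.2e-06) to 18.2 (15.7 to 21.0; adjusted p = 2.32e-07). Keratocan had a like pattern at far lower counts, with 12.9, 12.3 and 6.51 in E14.5 tendon and 246 and 322 at E18.5, while muscle held 1.16, 1.58 and 3.34 and then 9.20 and 13.6. Its fold was 6.69 (5.38 to 8.33; adjusted p = 4.65e-05) at E14.5 and 25.1 (20.8 to 30.2; adjusted p = 3.53e-07) at E18.5.

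Asporin, a class I member that binds collagen and TGF-β, went the other way. Its level in tendon was 155, 247 and 228 at E14.5 and 454 and 472 at E18.5, while muscle held 32.0, 50.2 and 34.9 and then 187 and 169. The tendon to muscle fold therefore narrowed from 5.32 (4.92 to 5.75) to 2.61 (2.39 to 2.86), and both folds passed the test (adjusted p = 6.33e-07 and 3.2e-06). Osteoglycin widened its gap, from 1.99-fold to 4.44-fold, with 146, 147 and 152 in E14.5 tendon and 750.0 and 867 at E18.5. Decorin went from 1.44-fold to 3.39-fold and biglycan from 2.33-fold to 3.61-fold.

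Lumican had the flattest pattern of the abundant members. It stood at 552, 491 and 425 in E14.5 tendon and 464 and 430 at E18.5, against 345, 369 and 327 and then 325 and 277 in muscle. Its tendon to muscle folds of 1.41 and 1.49 were called (adjusted p = 0.0109 at each stage), but not without E14.5 control 1 (log2 0.39) or E18.5 control 2 (log2 0.57). *Prelp* was 1.69-fold higher in tendon at E14.5 and 2.61-fold at E18.5. The E14.5 fold rests on 14, 35 and 2 tendon UMIs. Its unscaled CPM there was 3.54, 7.57 and 2.22 in tendon against 2.27, 2.95 and 3.04 in muscle, so control 3 went the other way. The E14.5 call was lost without control 1 (log2 0.91) or 2 (log2 0.21).

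**Figure D1:**
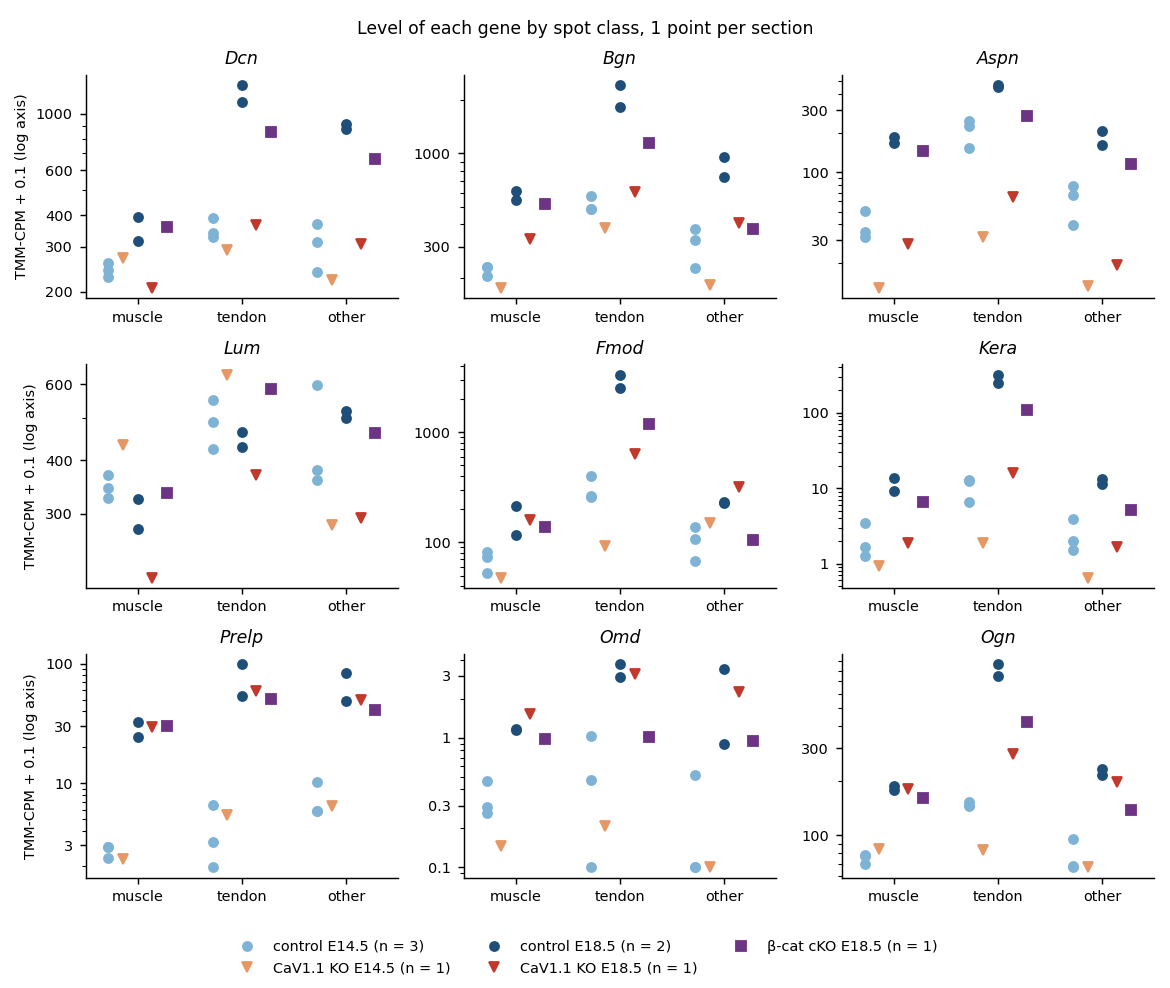
Level of each of the 9 genes (TMM-scaled CPM plus 0.1; log axis) in muscle, tendon and other spots, with 1 point per section and colors for the 5 groups. *Fmod* and *Kera* of the E18.5 controls sit far above their own muscle and other spots, *Aspn* of both KO sections lies at the bottom of its panel in every region, and *Lum* spans a narrow range.

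Beside these counts, 34.6% of the 14886 genes tested that did not define the regions were called between tendon and muscle at E14.5 (14.7% higher) and 43.9% at E18.5 (16.0% higher). In summed spots, fewer cells of a type and less RNA per cell cannot be told apart, and a spot at a border holds both tissues. Scaling by total UMIs moved the median of all genes from -0.01 to 0.14 at E14.5 and from -0.13 to 0.45 at E18.5, and the share of calls that were higher from 42.6% to 65.0% and from 36.5% to 78.0%. The 8 calls stood at both stages. Cartilage-rich spots were the second limit: without them the tendon call for *Prelp* was lost at E14.5 (log2 0.55) and at E18.5 (log2 0.35, from 1.38). They made up 66, 55 and 47 tendon spots of E14.5 controls 1 to 3, against 58, 69 and 13 others. There they held more of the tendon gene *Tnmd* (839, 518 and 745 CPM against 218, 279 and 401). The cartilage gene *Col2a1* was at 80.2, 162 and 147 CPM in them against 8.94, 23.4 and 5.14. In the cartilage-rich tendon spots of E18.5 controls 1 and 2 it was at 3430 and 2290, so those at E14.5 held far less of it. Leaving the cartilage-rich spots out at E14.5 thus also removed *Tnmd*-rich tendon, and *Prelp* was 1.03, 11.9 and 2.84 CPM in them against 5.96, 3.97 and 0. In the E18.5 controls 1 and 2, *Prelp* reached 102 and 104 CPM in cartilage-rich tendon spots against 22.3 and 49.6 in the other tendon spots.

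The change of the tendon to muscle gap with stage was tested as an interaction, which called 6 of 9 members against 16.6% of all genes (4.82% with a positive and 11.7% with a negative change in the log2 fold of tendon over muscle). It widened for *Fmod* by 2.03 ± 0.25 (log2 ± SE), *Kera* by 1.90 ± 0.39, *Dcn* by 1.24 ± 0.17, *Ogn* by 1.15 ± 0.14 and *Bgn* by 0.63 ± 0.17 (adjusted p = 0.000444, 0.00648, 0.000753, 0.000444 and 0.0276). It narrowed for *Aspn*, at -1.02 ± 0.17 (adjusted p = 0.00173). The *Bgn* call was lost without E14.5 control 2 (log2 0.56) or E18.5 control 2 (log2 0.55). For *Prelp* the difference was 0.63 ± 0.30 and for *Lum* 0.08 ± 0.20, neither of them called.

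Tendon was then set against the other non-muscle spots, which hold connective tissue, mesothelium, vessels and adjoining organs. Some muscle RNA was in them too, and more at E18.5. The muscle gene *Ttn* was at 980, 677 and 1047 unscaled CPM in other tissue of the E14.5 controls. In the E18.5 controls it was 3124 and 1775 in other tissue, 3256 and 2165 in tendon, and 7556 and 6999 in muscle. *Fmod*, *Kera*, *Aspn*, *Ogn* and *Bgn* were higher in tendon at both stages, 5 of 9 members where 3.33% of all genes were called at E14.5 (2.45% higher) and 13.8% at E18.5 (6.73% higher). At E18.5 the folds were 23.2 for *Kera* (18.8 to 28.5), 12.4 for *Fmod* (10.8 to 14.4), 3.60 for *Ogn*, 2.51 for *Aspn* and 2.51 for *Bgn*. *Dcn* and *Lum* were not called between these tissues: *Dcn* reached 1109 and 1302 in E18.5 tendon and 915 and 869 in other tissue, and *Lum* 464 and 430 against 501 and 520. *Prelp* at E14.5 was 3.11, 6.5 and 1.86 in tendon and 5.74, 10.0 and 5.73 in other tissue, a difference of -0.78 ± 0.26 that did not pass (adjusted p = 0.132). At E14.5 the *Kera* call was lost without control 1 (log2 2.32, from 2.69), and without cartilage-rich spots so were *Kera* (log2 1.68) and *Bgn* (log2 0.48).

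Other tissue against muscle separated the family in another way. At E14.5, 4 members were higher in other tissue (32.4% of all genes called, 15.5% higher): *Prelp* 2.90-fold (2.48 to 3.39), *Aspn* 1.49-fold, *Fmod* 1.45-fold and *Bgn* 1.36-fold. At E18.5, 6 were higher (53.1% of all genes, 24.1% higher): *Dcn* 2.53-fold (2.30 to 2.77), *Prelp* 2.26-fold (2.01 to 2.55), *Lum* 1.70-fold, *Fmod* 1.46-fold, *Bgn* 1.43-fold and *Ogn* 1.23-fold. *Kera* differed by 0.05 ± 0.48 at E14.5 and 0.11 ± 0.30 at E18.5 and was called at neither. Several of the small differences depended on 1 section: *Fmod* at E18.5 fell to 0.18 (log2) without control 1, and at E14.5 only *Prelp* kept its call without control 2.

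**Figure D2:**
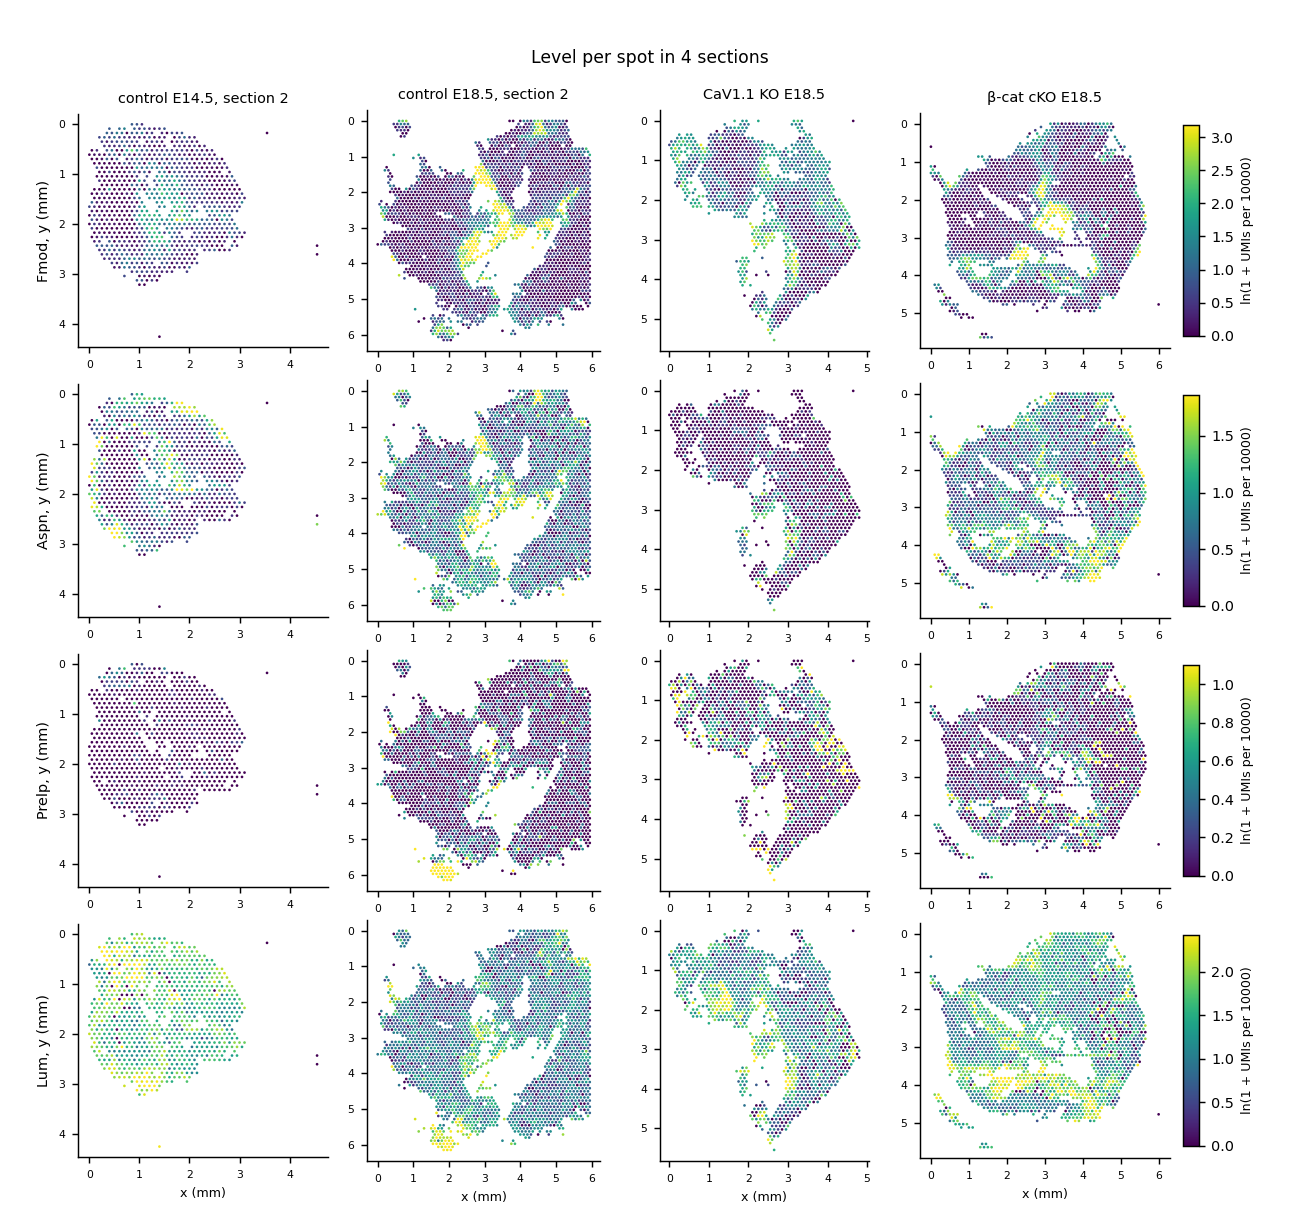
Level per spot of *Fmod*, *Aspn*, *Prelp* and *Lum*, as ln(1 + UMIs per 10000), in 1 section of 4 groups, with axes in mm. *Fmod* is brightest along the tendon of the E18.5 control, *Aspn* is dark over most of the CaV1.1 KO section, and the brightest *Prelp* spots of the E18.5 control lie in a separate piece of tissue.

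Position relative to the muscle edge was examined next, first as a profile and then as a test of muscle spots within 150 µm of a non-muscle spot (border) against the rest of the muscle (inside). All members but *Omd* were higher at the border at E18.5, and *Fmod* and *Kera* had by far the steepest edge. At E14.5 the steepest were *Aspn* and *Fmod*. In the profile of unscaled CPM, *Fmod* of E18.5 control 1 fell from 1126 in the first 100 µm outside muscle to 270.2 in the first 100 µm inside, 89.7 in the next, 42.8 in the next and 35.4 beyond 300 µm. Control 2 ran from 1662 to 668, 215, 109 and 52.3. *Kera* ran from 108 to 22.9, 8.69, 3.70 and 2.22 in control 1 and from 143 to 52.8, 11.9, 5.68 and 2.56 in control 2, so both genes lost most of their signal within 200 µm of the edge.

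The test put these edges in numbers. At E18.5, *Kera* was 7.70-fold (6.74 to 8.80) and *Fmod* 5.82-fold (5.43 to 6.25) higher at the border than inside, with adjusted p = 4.37e-09 and 9.51e-12. *Fmod* stood at 63.3 and 107 inside and at 317 and 719 at the border. *Ogn* (1.79-fold), *Dcn* (1.65-fold), *Bgn* (1.61-fold), *Aspn* (1.52-fold), *Prelp* (1.47-fold) and *Lum* (1.17-fold) had shallower edges, which makes 8 of 9 called beside 38.1% of all genes (13.6% higher). Without E18.5 control 2, *Prelp* (log2 0.28) and *Lum* (log2 0.15) were no longer called.

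At E14.5, 5 members were called at the border beside 14.4% of all genes (7.24% higher). *Aspn* was 2.46-fold higher (2.30 to 2.64; adjusted p = 1.99e-07), with 40.7, 78.9 and 75.4 at the border and 21.4, 28.8 and 26.3 inside. *Fmod* was 2.10-fold higher (1.96 to 2.24), with 68.0, 96.6 and 164 against 34.4, 51.1 and 63.0. *Bgn*, *Dcn* and *Lum* differed by 0.34, 0.27 and 0.20 (log2). The *Bgn* call was lost without E14.5 control 1 (log2 0.29) or 2 (log2 0.26), and those of *Dcn* (log2 0.21 to 0.25) and *Lum* (log2 0.12 to 0.18) without any one of the 3. *Kera* had 0.83 ± 0.37 and was not called.

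Between the stages the edge steepened for *Kera* by 2.11 ± 0.40, *Fmod* by 1.47 ± 0.14, *Ogn* by 0.62 ± 0.11 and *Dcn* by 0.45 ± 0.10 (log2 ± SE; adjusted p = 0.00232, 3.49e-06, 0.00172 and 0.00516). It flattened for *Aspn*, at -0.69 ± 0.13 (adjusted p = 0.00239), and these 5 calls stood beside 11.5% of all genes (3.44% with a positive and 8.04% with a negative change in the log2 fold of border over inside). *Aspn* lost its call without E14.5 control 2 (log2 -0.46) and when scaled by total UMIs (log2 -0.39). The border was a larger part of the muscle at E14.5, with 247 of 549, 203 of 571 and 70 of 581 muscle spots. At E18.5 it held 313 of 3092 and 202 of 2199. The sets compared are thus unlike between the stages, and the part of this in the changes was not tested.

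**Figure D3:**
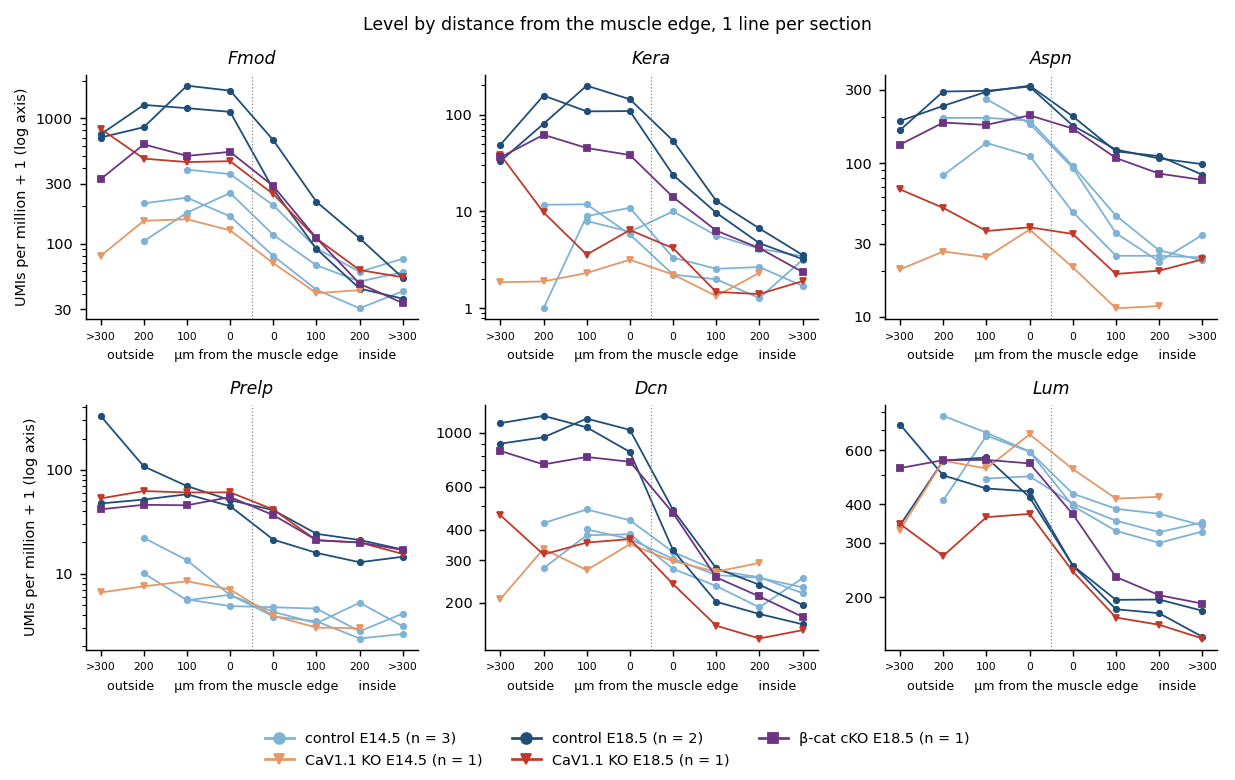
CPM plus 1 (log axis) of 6 members in steps of 100 µm outside (left) and inside (right) the muscle edge, marked by the dotted line, for steps with at least 20 spots and 1 line per section. *Fmod* and *Kera* of the E18.5 controls drop steeply from tendon into muscle, *Aspn* of the KO runs low on both sides, and *Prelp* is split by stage with all E18.5 sections above all E14.5 sections inside muscle.

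Within muscle, a center was defined by 8 endplate genes and a periphery by 4 genes of the myotendinous junction, in each case as the top 15% of muscle spots, and the center was compared with the periphery. All members called at E14.5 were lower at the center: 7 of 8 tested, beside 21.1% of all genes (9.42% lower). At E18.5, 5 were lower and *Lum* was higher, beside 22.7% of all genes (9.19% lower, 13.5% higher). *Omd* did not pass the filter on low counts here. *Fmod* at E14.5 had central levels of 28.4, 28.1 and 29.3 and peripheral levels of 55, 83.7 and 120, which is 2.87-fold lower (2.63 to 3.13). At E18.5 these were 41.3 and 71.0 against 275 and 479, 6.74-fold lower (6.37 to 7.13; adjusted p = 1.74e-20). *Kera* was a fitted 2.89-fold lower at E14.5 and 10.4-fold lower (9.16 to 11.9) at E18.5. Its E14.5 fold rests on 3, 3 and 4 central and 4, 9 and 12 peripheral UMIs, with the center at or near the floor of 3.

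*Aspn* again had the opposite course. At E14.5 its center held 12.3, 18.7 and 16.5 and its periphery 44.8, 87.7 and 43.4, 3.97-fold lower (3.62 to 4.35), and at E18.5 137 and 131 against 191 and 183, 1.39-fold lower (1.33 to 1.45). Whether the center to periphery differences changed between stages was not tested. *Bgn* was 1.58-fold lower at E14.5 and 1.53-fold at E18.5. *Lum* at E18.5 was the exception, with 286 and 234 centrally against 253 and 197 peripherally (1.16-fold higher, adjusted p = 0.0144). That call was lost without control 1 (log2 0.25) or 2 (log2 0.18). At E14.5 the calls of *Dcn* (log2 -0.16 and -0.23) and *Lum* (log2 -0.06 and -0.21) were lost without control 1 or 2, that of *Kera* (log2 -1.42 and -1.41) without control 2 or 3, and that of *Ogn* (log2 -0.28 to -0.14) without any one of them.

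Tendon spots were also divided into a central and a peripheral tendon, by whether they lay farther from the tissue outline than the median tendon spot of their section. At E14.5, 4 members were higher in the central tendon and 2 in the peripheral, 6 of 8 tested where 7.28% of all genes were called (3.31% higher, 3.97% lower). *Fmod* reached 481, 444 and 734 centrally and 149, 124 and 175 peripherally, 3.58-fold higher (3.34 to 3.83; adjusted p = 2.21e-11). *Kera* gave 42, 58 and 7 UMIs centrally and 16, 8 and 0 peripherally (levels of 25.2, 24.6 and 15.1 against 6.06, 2.93 and 0), a fitted 5.91-fold difference (adjusted p = 1.96e-06). A count of 0 allows up to 3 UMIs in that section. *Bgn* and *Ogn* were 1.40-fold and 1.38-fold higher centrally.

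*Prelp* and *Lum* were the members higher in the peripheral tendon. *Prelp* gave 0, 6 and 0 UMIs in the central and 14, 29 and 2 in the peripheral tendon at E14.5 (adjusted p = 0.00482), and levels of 20.8 and 53.3 against 107 and 152 at E18.5, 3.58-fold lower centrally (3.11 to 4.12; adjusted p = 1.53e-05). *Lum* was 1.35-fold lower centrally at E14.5, a call lost without control 1 (log2 -0.40). At E18.5 the gradients of *Fmod* and *Bgn* were 0.38 ± 0.10 and 0.25 ± 0.10 and were not called. *Kera* at 1.5-fold (adjusted p = 0.0203) and *Prelp* were, beside 0.417% of all genes (0.179% higher, 0.238% lower). The paper describes *Tnmd* as specific to the central tendon at E14.5. Its unscaled CPM there was 1031, 664 and 1148 centrally and 186, 143 and 232 peripherally. At E18.5 it was 1980 and 1445 centrally against 1563 and 1550, so the split hardly separated *Tnmd* at this stage. Whether the gradients changed between the stages was not tested.

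The cartilage-rich spots, which in the E14.5 controls held more *Tnmd* than the rest and far less *Col2a1* than at E18.5, bear on this split. Without them the E18.5 difference of *Prelp* turned to 0.42, and those of *Kera* (log2 0.08) and, at E14.5, *Prelp* (log2 -2.27), *Bgn* (log2 0.35) and *Ogn* (log2 0.41) were not called, whereas *Aspn* at E14.5 became lower centrally (log2 -0.83). *Kera* at E18.5 was not called without control 1 (log2 0.51) or 2 (log2 0.69), and *Ogn* at E14.5 not without control 1 (log2 0.21) or 3 (log2 0.46). Without E14.5 control 1, *Aspn* was called lower centrally (log2 -0.64).

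**Figure D4:**
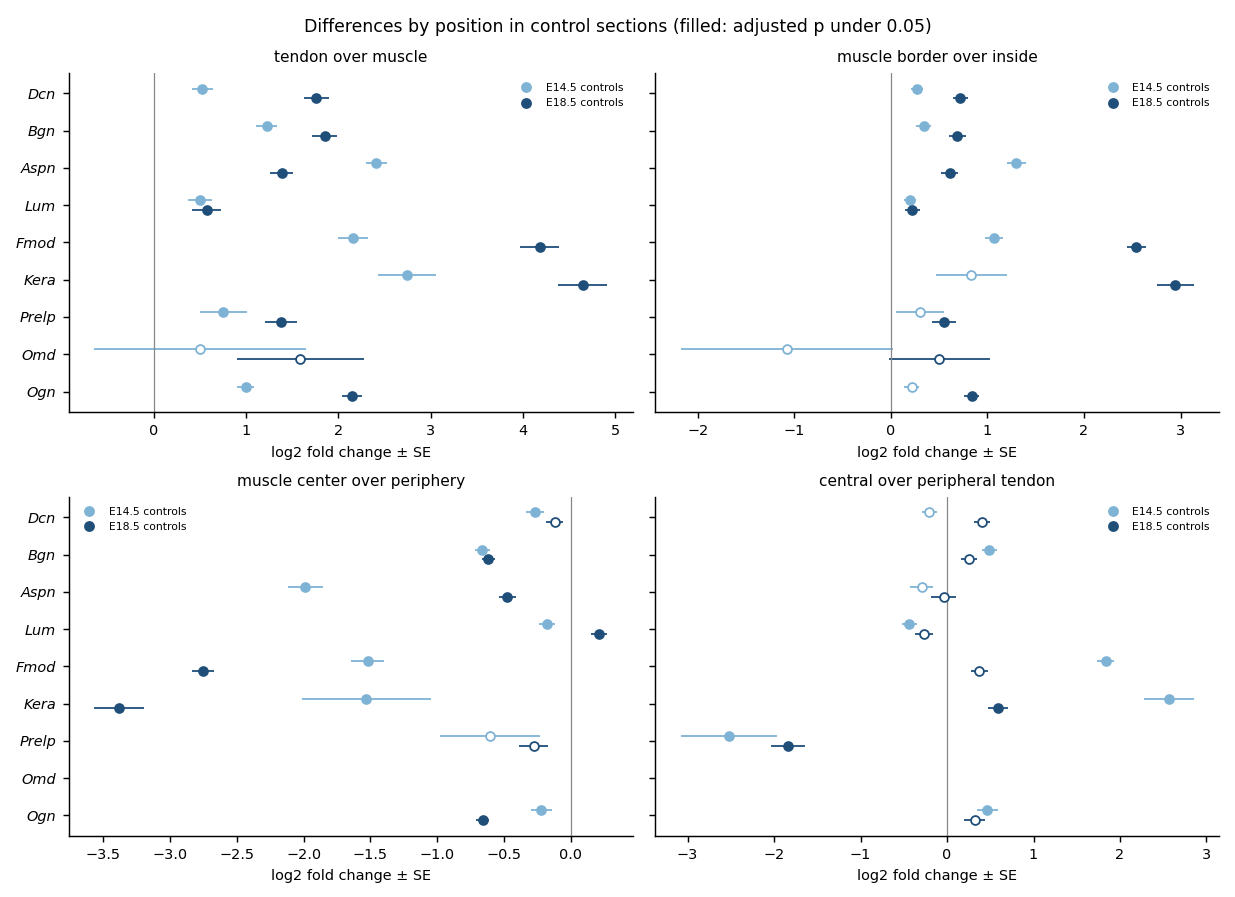
Log2 fold change ± SE of each member in the controls for tendon over muscle, muscle border over inside, muscle center over periphery, and central over peripheral tendon, at E14.5 and E18.5. Filled points passed an adjusted p of 0.05, and *Fmod* and *Kera* lie farther from 0 at E18.5 than at E14.5 in the first 3 panels, while *Aspn* lies nearer.

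Development from E14.5 to E18.5 was compared in control muscle and, separately, in all non-muscle spots. In muscle, 8 members rose and *Lum* fell, where 65.6% of all genes were called (33.2% higher, 32.4% lower). In non-muscle spots 8 rose, where 30.5% of all genes were called (16.5% higher), and *Lum* stayed within its spread (0.05 ± 0.17). *Prelp* had the largest rise in muscle and *Kera* in non-muscle spots. The levels below were scaled within each of these comparisons and so differ a little from those above.

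*Prelp* stood at 1.98, 2.42 and 2.45 in E14.5 muscle and at 19.6 and 26.2 in E18.5 muscle, a 10.0-fold rise (8.91 to 11.2; adjusted p = 2.78e-06). In non-muscle spots it went from 5.15, 9.13 and 3.43 to 55.8 and 96.8, 11.7-fold (8.94 to 15.3). *Kera* went from 6.36, 7.56 and 6.17 to 123 and 152 in non-muscle spots, 20.1-fold (17.9 to 22.5; adjusted p = 0.000554), and 5.43-fold in muscle. The stages did not overlap for either gene. *Omd*, which is best known from bone, rose 4.33-fold in muscle, on 4 to 5 UMIs per E14.5 control and 39 to 47 per E18.5 control. Its call in non-muscle spots rests on 3, 2 and 1 UMIs at E14.5, at or below the floor of 3, and on 13 and 21 at E18.5, so no fold is given.

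*Aspn* rose more in muscle (4.21-fold, 3.73 to 4.75, from 28.0, 43.4 and 30.2 to 152 and 135) than in non-muscle spots (2.17-fold, 1.76 to 2.68, from 91.4, 175 and 192 to 344 and 314). *Fmod* had the reverse order, with 2.21-fold in muscle and 6.37-fold in non-muscle spots (157, 197 and 345 to 1309 and 1643). *Ogn* rose 2.26-fold and 4.18-fold, *Bgn* 2.44-fold and 3.31-fold, and *Dcn* 1.35-fold and 3.12-fold. *Lum* in muscle went from 302, 319 and 282 to 264 and 222 (1.24-fold lower, adjusted p = 0.0411).

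The weaker of these calls did not stand everywhere. In muscle, *Dcn* fell out without E18.5 control 2 (log2 0.28) and turned to -0.29 when scaled by total UMIs, which moved the median of all genes from -0.01 to -0.74 and the share of calls that were higher from 50.6% to 19.9%. *Fmod* fell out among the muscle spots above the median muscle score (log2 0.40, from 1.14) and with total UMIs (log2 0.41), *Dcn* in the former (log2 0.14), and *Lum* without any 1 section other than E18.5 control 1 (log2 -0.36 to -0.19). In non-muscle spots *Aspn* was lost without any 1 section other than E14.5 control 1 (log2 1.05 to 1.29), and *Omd* without E14.5 control 1 or 2 (log2 3.20 and 2.86) or E18.5 control 2 (log2 2.88).

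The tissue in the spots moved with stage too. The summed cartilage markers in non-muscle spots were 160.3, 425 and 393 CPM at E14.5 and 1285 and 1486 at E18.5, and in muscle spots they reached 1033 in E18.5 control 1 against 77.2 in control 2 and 56.6 to 85.0 at E14.5. *Prelp* in muscle was 19.6 in control 1 and 26.2 in control 2. The summed fibroblast markers, which include *Col1a1* and *Col3a1*, were 19109 to 28601 in E14.5 and 42408 and 48933 in E18.5 non-muscle spots, and the tendon markers 866 to 1168 and 1686 and 1756. Their part in the rises was not tested.

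The lack of CaV1.1 was examined in muscle spots first. *Aspn* fell at both stages and had the largest drop among the abundant members. At E18.5 *Kera*, *Bgn* and *Dcn* fell as well, which made 4 of 9 members lower beside 25.7% of all genes called (15.1% lower), whereas *Fmod*, *Ogn* and *Prelp* were not called. At E14.5 *Aspn* was the 1 member called, beside 2.08% of all genes (1.54% lower). The KO and the cKO at E18.5 share their 2 controls.

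*Aspn* stood at 11.2 in KO muscle at E14.5, against 28.0, 43.4 and 30.2 in controls, which is 3.05-fold lower (2.54 to 3.67; adjusted p = 0.0303). At E18.5 it stood at 23.8 in the KO against 152 and 135, 6.03-fold lower (4.98 to 7.31; adjusted p = 0.00169), and thus under the lowest control of the earlier stage. The E14.5 call was lost without control 3 (log2 -1.68). *Kera* was 1.51 against 7.47 and 10.9 in E18.5 muscle, 6.08-fold lower (3.97 to 9.30; adjusted p = 0.0202). *Bgn* was 281 against 446 and 495 (1.68-fold lower, adjusted p = 0.00951) and *Dcn* 176 against 258 and 316 (1.63-fold lower, adjusted p = 0.0181).

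Several members lay inside or beyond the control range in the KO. *Fmod* was 136 in KO muscle at E18.5, between the controls at 93.9 and 171. The muscle spots were not alike in position. Border spots were 312 of 813 in the KO and 352 of 1577 in the cKO, against 313 of 3092 and 202 of 2199 in the controls. In unscaled CPM, *Fmod* was 247 at the KO border against 270 and 668 in the controls, and 78.4 inside against 43.9 and 74.3. The part of position in the levels over all muscle spots was not tested. *Ogn* at 152 lay just above 143 and 150.5, and *Prelp* at 25.2 lay between 19.6 and 26.2. *Lum* was 181 against 264 and 222, a difference of -0.42 ± 0.15 that did not pass (adjusted p = 0.0796) and did without control 2 (log2 -0.54). The calls of *Bgn* and *Dcn* depended on the scaling: with total UMIs, which moved the median of all genes in this comparison to 0.54 and the share of calls that were higher from 41.2% to 90.7%, they were -0.21 and -0.17 and not called, while *Aspn* and *Kera* kept theirs.

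The change of the KO effect between the stages was called for none of the 9 in muscle (6.40% of all genes). 4 passed an unadjusted p under 0.05, and DESeq2 called *Dcn*, *Lum* and *Aspn*. *Aspn* had -0.98 ± 0.35, *Dcn* -0.86 ± 0.21 and *Lum* -0.74 ± 0.21. *Dcn* was called without E18.5 control 1 (log2 -0.99), and *Aspn* without E14.5 control 2 (log2 -1.21).

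In cKO muscle none of the 9 members was called, where 8.80% of all genes were, and none passed an unadjusted p under 0.05 or was called by DESeq2. *Aspn* was 118 against 152 and 135, *Kera* 5.33 against 7.47 and 10.9, *Bgn* 422 against 446 and 495, and *Dcn* 292 between 258 and 316. Set directly against the KO, the cKO held 4.97-fold more *Aspn* (4.05 to 6.08; adjusted p = 0.00547), the 1 member called beside 7.29% of all genes (4.43% higher). DESeq2 also called *Dcn*, *Bgn* and *Lum*, which differed by 0.73, 0.59 and 0.60 (log2).

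The mutants also differed in non-muscle spots, where the spread between sections was larger. *Kera* was the 1 member called in both mutants at E18.5, although others lay below both controls as well. Its level was 7.98 in the KO and 41.9 in the cKO, against 123 and 152 in controls. That is 17.2-fold lower in the KO (14.4 to 20.5; adjusted p = 0.0187) beside 0.108% of all genes called (0.0811% lower), and 3.28-fold lower in the cKO (2.83 to 3.80; adjusted p = 0.0232) beside 1.22% (0.122% lower). The cKO held 5.24-fold more *Kera* than the KO (adjusted p = 0.0265; 0.527% of all genes, 0.480% higher). Neither control could be left out without losing the calls against controls, although the KO stayed at log2 -4.25 and -3.94 and the cKO at -1.86 and -1.55.

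*Aspn* in non-muscle spots was 40.8 in the KO and 181 in the cKO, against 344 and 314, and 25.9 in the E14.5 KO against 91.4, 175 and 192. All mutant sections lay below all their controls, yet the differences of -3.01 ± 0.49, -0.86 ± 0.43 and -2.55 ± 0.46 were not called by edgeR. At E18.5, *Fmod* was 488 in the KO and 497 in the cKO against 1309 and 1643, with differences of -1.60 ± 0.49 and -1.57 ± 0.49. *Bgn* was 537 and 684 against 1310.4 and 1696, *Ogn* 252 and 249.9 against 497 and 526, and *Dcn* 365 and 796 against 1094 and 1133. These 4 were thus below both controls in both mutants and not called by edgeR. The share of all genes below both controls in both mutants is not given here, so this order is no result about the family. Nor is the share that DESeq2 called, and the shares above are those of edgeR. DESeq2 called *Dcn*, *Bgn* and *Ogn* with *Aspn* and *Kera* in the KO at E18.5, *Bgn*, *Ogn* and *Kera* in the cKO, *Dcn*, *Aspn* and *Kera* between the mutants, and *Aspn* and *Kera* in the KO at E14.5. There edgeR called 0 members and 0.00% of all genes, with 3 members under an unadjusted p of 0.05. *Aspn* was called without E14.5 control 1 (log2 -2.82). For the change of the KO effect with stage it called 0 members and 0.00% of all genes, with 2 under an unadjusted p of 0.05, and DESeq2 called *Dcn*. *Prelp* and *Lum* were below both controls in 1 mutant each and not called in either. *Prelp* was 59.2 in the KO and 48.3 in the cKO against 55.8 and 96.8, and *Lum* 357 in the KO and 552 in the cKO against 532 and 521.

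**Figure D5:**
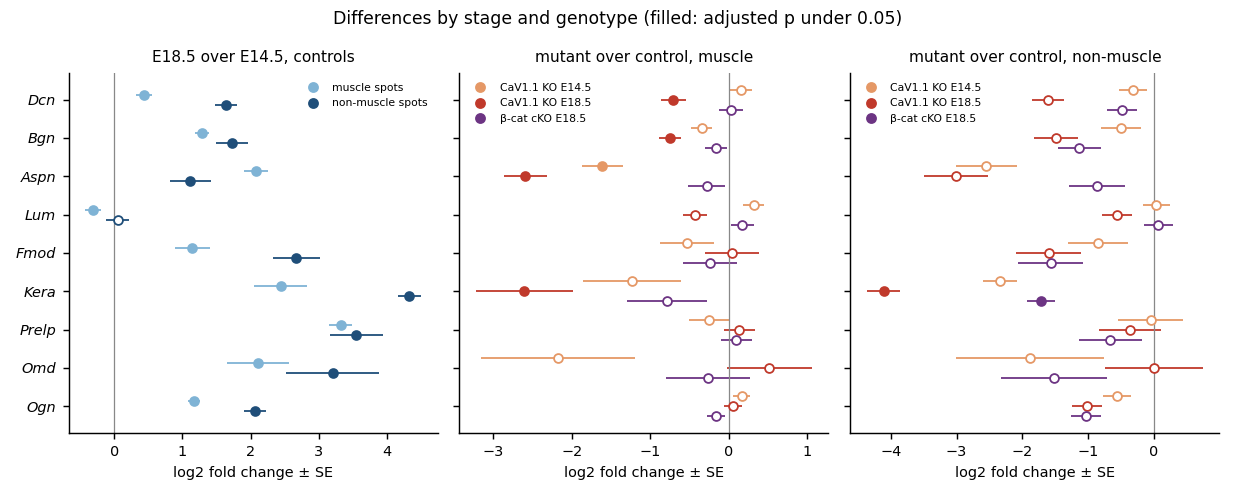
Log2 fold change ± SE of each member for E18.5 over E14.5 in controls (left), and for the mutants over their controls in muscle (middle) and non-muscle spots (right). Filled points passed an adjusted p of 0.05: *Aspn* of the KO lies farthest left among the abundant members in both tissues, *Kera* is filled for both E18.5 mutants in non-muscle spots, and no cKO point in muscle is filled.

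Tendon tissue moved with genotype as well. In non-muscle spots the 8 tendon markers summed to 257 CPM in the KO at E14.5 against 866 to 1168 in controls, and at E18.5 to 417 in the KO and 859 in the cKO against 1686 and 1756. In muscle spots they summed to 241 against 430 to 544 at E14.5, and to 252 in the KO and 592 in the cKO against 458 and 530 at E18.5. Hepatocyte markers in non-muscle spots were 13628 in the KO at E18.5 and 149.99 in the cKO, against 10304 and 1.88 in the controls. The share of these tissues in the differences was not tested. In tendon spots alone, a class that depends on the tendon genes of each section, *Aspn* was 64.2 in the KO and 269 in the cKO at E18.5 against 454 and 472, *Kera* 16.0 and 109 against 246 and 322, and *Fmod* 634 and 1194 against 2495 and 3331. *Prelp* was 59.3 and 50.6 against 53.6 and 99.0.

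How the members varied together was described by Pearson's r over the spots of a section, on log-normalized UMIs, as the mean over the 8 sections. Spots of a section share a library and its depth, so r is given without a test. Of 36 pairs, 22 were positive in all 8 sections. *Bgn* and *Fmod* had the highest mean (0.50, 0.15 to 0.75), followed by *Bgn* with *Aspn* (0.42), *Fmod* with *Kera* (0.42), *Fmod* with *Ogn* (0.41) and *Dcn* with *Lum* (0.39). The lowest means were those of *Prelp* with *Kera* (0.0094) and with *Omd* (0.0055). Of the neighbors on a chromosome, *Fmod* and *Prelp* had 0.16, *Dcn* and *Kera* 0.20, *Lum* and *Kera* 0.13, and *Aspn* and *Ogn* 0.30.

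Among 9931 genes with a UMI in at least 10% of the spots of every section, the genes most like each member outside the family were mostly collagens. *Fmod* was closest to *Col1a1* (mean r 0.70), *Col1a2* (0.69) and *Tnmd* (0.64), the last encoding the tendon protein tenomodulin. *Bgn* was closest to *Col1a2* (0.63), *Col1a1* (0.61) and *Col3a1* (0.58), and *Dcn* to *Col3a1* (0.53), *Col1a1* (0.49) and *Col1a2* (0.49). *Aspn* was closest to *Postn* (0.51), the matrix protein periostin, *Col1a2* (0.49) and *Col1a1* (0.49), and *Ogn* to *Col1a2* (0.47), *Col1a1* (0.45) and *Col5a2* (0.43). *Lum* was closest to *Ptn* (0.44), the growth factor pleiotrophin, *Col3a1* (0.43) and *Fstl1* (0.39). The sparse members gave *Tnmd* (0.48), *Col11a1* (0.40) and *Ecrg4* (0.40) for *Kera*, *Eln* (0.20), *Ptn* (0.20) and *Cdh11* (0.19) for *Prelp*, and at most 0.07 for *Omd*.

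The genes the family works with were counted from lists chosen by role, to be read beside the 34.6% of all genes called between tendon and muscle at E14.5 (14.7% higher, and the rest lower) and the 16.0% called higher at E18.5. Of 12 fibrillar and fibril-associated collagens tested, 11 were higher in tendon than in muscle at E14.5 (median log2 1.16) and 10 at E18.5 (1.68), beside medians of 0.995 and 1.76 over the 9 members and -0.01 and -0.13 over all genes. *Col2a1* (3.29), which is also one of the 8 cartilage markers, and *Col11a2* (1.91) led at E14.5. Of 16 genes of collagen crosslinking and maturation, 11 were higher and 1 lower at E14.5, among them *Adamts3* (1.63), a procollagen protease, and *Lox* (1.31), lysyl oxidase. TGF-β and BMP signaling had 13 of 19 higher and 1 lower, with *Ltbp2* (2.56) and *Bmp2* (1.57) first. Of 30 genes that build chondroitin, dermatan and keratan sulfate chains, 12 were higher and 1 lower, with *Chsy3* (1.21), a chondroitin synthase, and *Chst3* (-0.99), a sulfotransferase, as the largest. Of 15 large and membrane proteoglycans, 5 were higher and 3 lower, with *Acan* (3.38), the aggrecan of cartilage, and *Gpc1* (-1.17), a glypican, at the ends. Of 8 other leucine-rich matrix genes, 3 were higher, led by *Podn* (1.95) and *Ecm2* (1.0), the latter a neighbor of *Aspn*.

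Between the stages, 65.6% of all genes were called in muscle (33.2% higher, 32.4% lower) and 30.5% in non-muscle spots (16.5% higher). Of the lists, 10 of 14 collagens rose in muscle and 12 in non-muscle spots, with none lower. *Col2a1* (6.63 ± 1.08 SE) and *Col5a3* (4.74) led in muscle, and *Col5a3* (4.78) and *Col2a1* (4.52) in non-muscle spots. The cartilage markers, which include *Col2a1*, were high in muscle spots of E18.5 control 1 but not of control 2, as given above. Crosslinking genes had 10 higher and 3 lower of 16 in muscle, with *Lox* at 2.15 and *Tll1*, a tolloid-like protease, at -2.12, and 11 higher in non-muscle spots, led by *Pcolce2* (4.32) and *Loxl4* (3.75). Chain synthesis had 7 of 30 higher and 13 lower in muscle, a share called near that of all genes, with *Chst4* at 4.31 and *Chst7* at 2.21, and had 8 higher and 1 lower in non-muscle spots (*Chst4* 4.42, *Chst7* 2.12). Signaling genes had 9 higher and 6 lower of 19 in muscle (*Ltbp2* 1.56, *Smad7* 1.49), and 5 and 1 in non-muscle spots (*Ltbp2* 1.85, *Tgfbr3* 1.36). Large proteoglycans had 9 higher and 4 lower of 15 in muscle (*Acan* 4.45, *Sdc4* 2.04), and 8 and 1 in non-muscle spots (*Acan* 4.75, *Sdc4* 2.18). The other leucine-rich genes had 4 higher and 1 lower of 8 in muscle, with *Chad*, the chondroadherin of cartilage, at 5.20 and *Ecm2* at 2.71, and 4 higher in non-muscle spots, at 5.75 and 3.60 for the same genes. In KO muscle at E18.5, where 15.1% of all genes were lower, 5 of 14 collagens were lower with none higher. Crosslinking genes had 3 of 16 lower there, a share near that of all genes, and in cKO muscle, where 8.80% of all genes were called, 1 collagen was lower.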

How the data were processed

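The authors deposited, for each of 8 sections, UMI counts per spot and gene from Space Ranger (version 2.0.0 for 3 sections and 2.0.1 for 5, per the file headers), made on mm10 with a mouse probe set; Seurat is named in the submitters' processing notes without a version. A deposited list of spatial enrichment scores and p-values was not used. Each section comes from a separate embryo, and the litter is not given. Spots with at least 1000 UMIs were kept, doublets are not defined for spots, and regions were set per section with Otsu's threshold on sums of marker genes (9 for muscle, 4 for tendon). These genes stayed in the fits and were left out of the shares of all genes and the list counts for the comparisons they define. Shared barcodes are grid positions of the slides. The tendon split uses the distance to the convex hull of the largest piece of tissue, a definition settled after the levels of *Tnmd* had been seen.

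UMIs were summed per section and region, since spots are not replicates, and tested with edgeR 4.0.16 in R 4.3.3 (filterByExpr, TMM, quasi-likelihood F test, Benjamini-Hochberg over all genes). Regional fits kept the section as a block, because regions of a section come from 1 embryo (deviations of the regions of a section from their group correlated at 0.24 to 0.83). Stage and genotype fits had 5 groups and 3 residual degrees of freedom, so the spread for the single mutant sections is borrowed from the controls. Errors are standard errors of the log2 fold change, and a range beside a fold is ± 1 SE. A count of 0 allows 3 UMIs, and this limit covers counting error only. Alternatives were DESeq2 1.42.0, other scalings, no filter on low counts, other spots and region limits, each control left out, and the replicate block removed or added. The shares of all genes are those of the main edgeR fits, and calls by DESeq2 cannot be set against them. Only the stage fit in muscle and the border fit were run on simulated counts, with 1 fixed spread and no section effect. The mutant comparisons and the other fits were not tested in this way. Python 3.11.15 was used for regions and correlations, and matplotlib 3.10.9 for plots.

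The text names the 9 members in every comparison, the up to 2 called genes of each list with the largest change in 3 comparisons, and for each member the 3 genes with the highest mean correlation. The members, lists and tests were chosen with earlier results of these data known. Gene positions are from GENCODE M21, and promoters from RefSeq.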

Additional observations from a re-analysis of the deposited data

Results flagged for a closer look

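In the controls, the tendon to muscle difference changed between E14.5 and E18.5 by a test of the change itself for 6 members. On the log2 scale it grew by 2.03 for *Fmod*, 1.90 for *Kera*, 1.24 for *Dcn*, 1.15 for *Ogn* and 0.63 for *Bgn*, and it changed by -1.02 for *Aspn*. The difference between muscle border and inside changed by the same kind of test for 5 members: 2.11 for *Kera*, 1.47 for *Fmod*, 0.62 for *Ogn*, 0.45 for *Dcn* and -0.69 for *Aspn*. The border held a larger share of the muscle spots in the E14.5 than in the E18.5 controls. The summed muscle markers in non-muscle spots, which show how much muscle RNA these spots held, were 5636 to 8681 CPM at E14.5 and 47828 and 31869 in E18.5 controls 1 and 2. Their part in these changes was not tested.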

How the results depend on the processing

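Of 107 called values of members, 57 kept their call under every alternative run and 50 lost it under at least 1, while 37 of 123 values not called were called under at least 1. The direction of a called value turned in 2 cases: *Dcn* between stages in muscle, to -0.29 with total UMIs, and *Prelp* between central and peripheral tendon at E18.5, to 0.42 without cartilage-rich spots.

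Counts of members called moved most with the block. Without the section as a replicate block, the counts fell from 4 to 1 and from 6 to 3 for other tissue against muscle at E14.5 and E18.5, from 5 to 0 and from 8 to 5 at the muscle border, from 5 to 0 for its change with stage, from 7 to 3 at the center at E14.5, and from 6 to 2 and from 2 to 0 in central tendon. The replicate numbers of the stages are only labels (r of -0.07 and -0.17 between same-numbered sections). With the number as a replicate block, the counts fell from 1 to 0 for the KO at E14.5 in muscle, and for the KO, the cKO and the cKO against the KO at E18.5 in non-muscle spots.

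Without cartilage-rich spots, tendon against other tissue at E14.5 had 3 members in place of 5, and central tendon at E18.5 had 0 in place of 2. A border of 250 µm gave 3 in place of 5 at E14.5. Central tendon at E18.5 had 1 by DESeq2 and 4 without the filter on low counts. In muscle, the cKO against the KO had 2 with DESeq2 size factors, with total UMIs or without the filter, and 4 by DESeq2 or in purer spots, in place of 1. The change of the KO effect had 3 by DESeq2 and 1 without the filter or in purer spots, in place of 0. In non-muscle spots, DESeq2 called 2 in the KO at E14.5 in place of 0, 5 in the KO and 3 in the cKO at E18.5 in place of 1 each, 3 between the mutants in place of 1, and 1 for the change of the KO effect in place of 0. The mutants differed in 0 members in purer spots.

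With each control section left out in turn, the tendon to muscle counts ran from 6 to 8 at E14.5 and 7 to 8 at E18.5, and from 5 to 6 for their change. Other tissue against muscle ran from 1 to 6 and 4 to 5, and tendon against other tissue from 4 to 5 and 5 to 5. The border ran from 2 to 3 and 6 to 8, its change from 4 to 6, the center from 3 to 5 and 5 to 5, and central tendon from 5 to 6 and 1 to 1. Between stages, muscle ran from 7 to 9 and non-muscle spots from 6 to 7. The KO ran from 0 to 1 at E14.5 in both tissues, and at E18.5 from 4 to 5 in muscle and 0 to 0 in non-muscle spots. The cKO had 0 to 0 in both tissues, and the change of the KO effect 0 to 1 in muscle and 0 to 0 in non-muscle spots. Where a stage is left with 1 control, that section is assumed to vary like the others, and the cause of the other moves was not tested. Depth limits *Omd*, *Prelp* and *Kera*, whose totals in single sections were as low as 2, 44 and 38 UMIs.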
